A study of Arabidopsis thaliana with 10 samples.

Results

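AT3G62730 and AT3G62780 are protein-coding genes on chromosome 3 of Arabidopsis thaliana whose transcripts were both more abundant after induction of wild-type KLU, the one in part by 90 min and further by 240 min, the other within the first 90 min. They were chosen as 2 of the 13350 genes that a probe set names alone, because earlier results of these arrays showed them among the largest differences of induced wild-type KLU from mutant KLU at 240 min and from uninduced plants. Each gene is measured by 1 probe set that names no other gene, and 0 further probe sets name either gene together with others. The gene tables used here give both genes an identifier and no function, so none is stated.

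The samples were inflorescences with their young flower buds, pooled per sample. The klu-2 allele was present in all plants, together with a 35S::AlcR-AlcA transgene, in which the constitutive 35S promoter drives AlcR and ethanol vapour lets AlcR switch on the AlcA promoter. With the KLU construct, lines 3-1 and 4-3 were sampled without ethanol treatment (0 min) and after 90 and 240 min of vapour, and with the KLUmut construct, which encodes mutant KLU protein as a control, lines 1-5 and 3-2 were sampled after 90 and 240 min. This gives 10 arrays in 5 groups of 2, with 1 array for each line and time. The lines of a construct are independent transformants and served as the replicates, no uninduced mutant KLU plants were measured, and the comparison of the constructs is therefore also one between different lines.

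KLU (CYP78A5) is a cytochrome P450 that promotes the growth of leaves and floral organs by prolonging cell proliferation, and it acts beyond the cells that make it, which has been taken as a sign of a mobile growth signal. The ethanol switch comes from the fungus Aspergillus nidulans, where the regulator AlcR activates genes of ethanol use. Genes that respond soon after the switch and genes that respond later can be told apart only by sampling several times after induction, which is the question put to the 2 genes here.

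The arrays were alike in their overall distribution, with medians of 5.93 to 6.05, lower quartiles of 3.77 to 3.94 and upper quartiles of 7.56 to 7.65, all in log2 intensity. Of a list of 10 meristem and flower genes, 1 was measured under its name, the stem cell gene CLV3, with 3.25 to 3.78 log2 units, below the lower quartile of every array, so the list could not check the labelled tissue. The 2 measured tapetum markers averaged 6.88 to 7.89 log2 units on the 10 arrays, and 0 of the 2 passed in any comparison, where 0% to 6.82% of all probe sets did. The few arrays per group limit the precision of the values below. With 2 arrays per group, groups can lie apart without any response. How many of all probe sets did so was not counted, so statements on overlap only describe the arrays. The levels of different probe sets are not compared with each other, only their changes.

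AT3G62730 was low in uninduced plants, moderately higher at 90 min and far higher at 240 min with wild-type KLU, and it stayed low with mutant KLU. Its log2 intensity with wild-type KLU was 3.39 in line 3-1 and 3.75 in line 4-3 at 0 min, 5.18 and 4.62 at 90 min, and 7.08 and 7.24 at 240 min, in the same order of lines. With mutant KLU it was 3.71 in line 1-5 and 3.89 in line 3-2 at 90 min, and 3.18 and 3.56 at 240 min. Both wild-type KLU arrays at 240 min lay above both at 90 min, and these lay above all 6 other arrays. The mutant KLU arrays overlapped with the uninduced ones at both times. Against all probe sets of the same array, AT3G62730 stood at percentile 65.7 and 69.2 on the 240 min arrays of wild-type KLU, and at 40.7 and 34.9 on its 90 min arrays. On the other 6 arrays it stood between 9.13 and 26.2, near or below the lower quartile, so folds against those arrays rest on a low signal.

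AT3G62780 was low in uninduced plants and was already at its high level at 90 min with wild-type KLU. Its log2 intensity with wild-type KLU was 3.96 in line 3-1 and 4.57 in line 4-3 at 0 min, 8.50 and 9.14 at 90 min, and 8.50 and 9.36 at 240 min. With mutant KLU it was 5.41 in line 1-5 and 6.21 in line 3-2 at 90 min, and 4.78 and 5.58 at 240 min. The 4 induced wild-type KLU arrays lay above all others, the arrays at 240 and 90 min overlapped, and all 4 mutant KLU arrays lay above the uninduced ones and below the induced wild-type ones. Its percentile within an array was 86.1 to 93.2 on the 4 induced wild-type KLU arrays, 36.5 to 52.2 on the mutant KLU arrays, and 26.6 and 35.0 on the uninduced arrays.

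**Figure D1:**
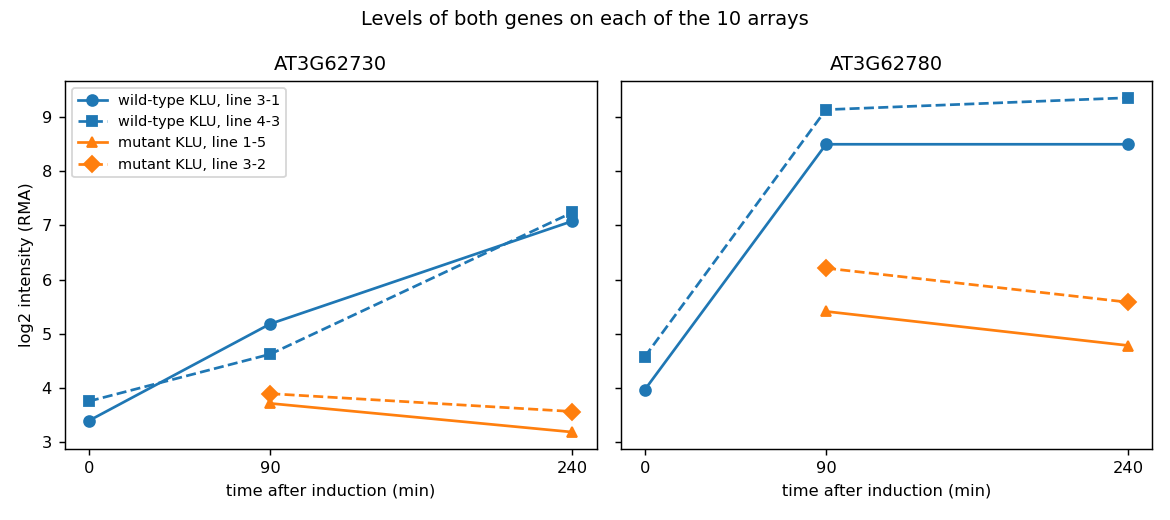
Log2 intensity (vertical axis) of AT3G62730 (left panel) and AT3G62780 (right panel) against time after induction in min (horizontal axis). Each point is 1 array and each line joins the arrays of 1 transformed line, blue for wild-type KLU and orange for mutant KLU; AT3G62730 reaches 7.08 and 7.24 at 240 min, while AT3G62780 is at 8.50 and 9.14 by 90 min.

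The groups are ordered for AT3G62730 as wild-type KLU at 240 min with 7.16 ± 0.11 (mean and SD of the log2 values, n = 2 in each group), at 90 min with 4.90 ± 0.40, mutant KLU at 90 min with 3.80 ± 0.13, uninduced wild-type KLU with 3.57 ± 0.25, and mutant KLU at 240 min with 3.37 ± 0.27. Neighbours in order among the last 3 differ by less than the larger SD of the pair. For AT3G62780 the order is wild-type KLU at 240 min with 8.93 ± 0.61, at 90 min with 8.82 ± 0.45, mutant KLU at 90 min with 5.81 ± 0.57, at 240 min with 5.18 ± 0.57, and uninduced wild-type KLU with 4.27 ± 0.43. Wild-type KLU at 240 and at 90 min differ by less than their SD between lines, and mutant KLU at 90 and at 240 min by about theirs. The same lines were sampled at both times, so these SDs do not measure the spread of the change. Within lines AT3G62780 changed from 90 to 240 min by 0 and 0.22 with wild-type KLU and by -0.63 in each mutant KLU line.

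The differences for which the genes were chosen are given without a test. At 240 min wild-type KLU exceeded mutant KLU by 3.79 log2 units (SE 0.231) for AT3G62730 and by 3.75 (SE 0.442) for AT3G62780, which is 13.8-fold and 13.5-fold. These differences ranked at places 9 and 10 of 22746 probe sets. In this comparison limma called 0.721% of all probe sets higher. Against the uninduced plants, wild-type KLU at 240 min was higher by 3.59 for AT3G62730 and by 4.67 for AT3G62780, and 3.67% of probe sets were called higher. At 90 min it was higher than uninduced by 1.33 for AT3G62730, at place 350, and by 4.56 for AT3G62780, at place 6, with 1.11% of probe sets called higher. So the genes stood side by side at 240 min against mutant KLU. Against uninduced plants AT3G62730 stood at place 42 and AT3G62780 at place 9 at 240 min, and they were further apart at 90 min. The comparisons share the arrays of wild-type KLU or the uninduced ones.

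In both lines AT3G62780 had made nearly its whole step by 90 min, while AT3G62730 had made up to 48.5% of its own on the log2 scale. In line 3-1 AT3G62730 was higher by 1.79 log2 units at 90 than at 0 min (3.46-fold) and by a further 1.90 at 240 than at 90 min (3.73-fold). In line 4-3 the same steps were 0.87 (1.83-fold) and 2.62 (6.15-fold). The first step was larger in line 3-1 and the second in line 4-3, and the whole change was 12.9-fold in line 3-1 and 11.2-fold in line 4-3. For AT3G62780 the step from 0 to 90 min was 4.54 in line 3-1 and 4.57 in line 4-3 (23.3-fold and 23.8-fold), and the step from 90 to 240 min was 0 and 0.22. The lines thus gave nearly the same early step for AT3G62780. As a share of the whole log2 change, 48.5% (line 3-1) and 24.9% (line 4-3) had been reached by 90 min for AT3G62730, and 100% and 95.4% for AT3G62780. On the linear intensity scale the shares were 20.6% and 8.09% for AT3G62730, and 100% and 85.3% for AT3G62780.

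The change from 90 to 240 min with wild-type KLU is the difference of 2 values that chose the genes, those of 240 and of 90 min against uninduced plants, so it is also given without a test. AT3G62730 was higher at 240 than at 90 min by 2.26 log2 units (SE 0.231), 4.79-fold, in 2 of 2 lines, and AT3G62780 by 0.11 (SE 0.442). Limma called 0% of the 22746 probe sets here, while 2313 had a p under 0.05 before adjustment.

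The change of AT3G62730 from 90 to 240 min exceeded that of AT3G62780 by 2.15 log2 units with wild-type KLU, by 1.90 in line 3-1 and 2.40 in line 4-3 (SD over lines 0.35, n = 2). With mutant KLU the same difference of changes was 0.10 in line 1-5 and 0.30 in line 3-2. It rests on the arrays that chose the genes and has no test.

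Across probe sets that were higher at 240 than at 0 min by at least 2 log2 units in both wild-type KLU lines, a fast response was common. There were 145 of these, AT3G62730 and AT3G62780 among them. By 90 min they had reached a median of 84.0% of their log2 change over both lines (quartiles 62.4% and 100%). All shares in this paragraph are on the log2 scale. AT3G62780 had reached 97.6%, and 101 of the 145 had a lower share. AT3G62730 had reached 37.0%, and 14 had a lower share. A share under 50% was found in 25 of them (17.2%) and one of at least 80% in 79 (54.5%). These shares are a description, since the probe sets were chosen on the same arrays.

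**Figure D2:**
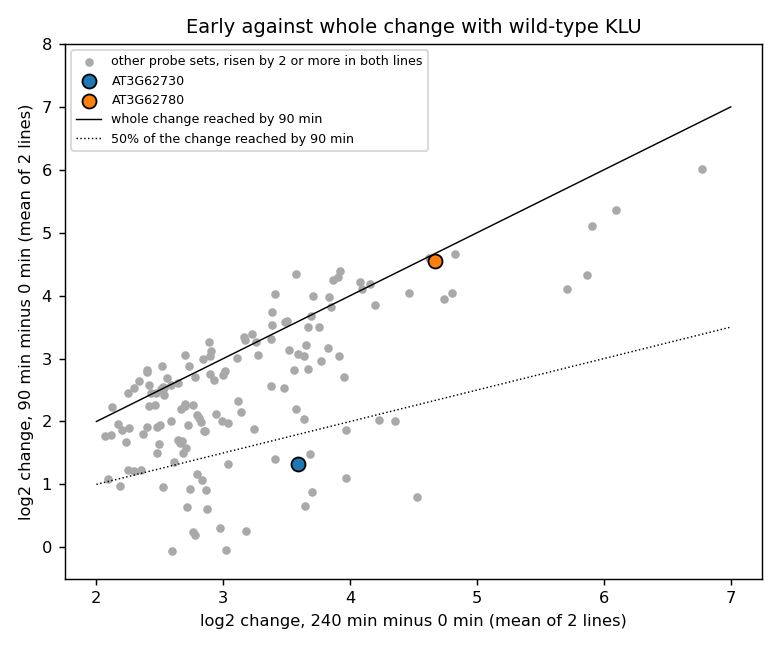
Log2 change from 0 to 90 min (vertical axis) against log2 change from 0 to 240 min (horizontal axis) with wild-type KLU, means of 2 lines, for the 145 probe sets higher by at least 2 log2 units at 240 min in both lines. The solid line marks a whole change reached by 90 min and the dotted line 50% of it; AT3G62780 (orange) lies on the solid line and AT3G62730 (blue) below the dotted one.

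The early difference between the constructs asks whether the genes had parted from mutant KLU at 90 min. AT3G62780 averaged 8.82 with wild-type KLU and 5.81 with mutant KLU, a difference of 3.01 (SE 0.442, 95% interval 1.98 to 4.04, 8.06-fold). AT3G62730 averaged 4.90 with wild-type KLU and 3.80 with mutant KLU, a difference of 1.10 (SE 0.231, 95% interval 0.56 to 1.64, 2.14-fold). The wild-type KLU arrays at 90 min also entered a comparison that chose the genes. Neither gene passed the threshold in limma, with adjusted p = 0.0825 for AT3G62780 and 0.172 for AT3G62730. In this comparison 0.0044% of all probe sets passed, which is 1 probe set. The difference of AT3G62780 stood at place 14 and that of AT3G62730 at place 287 of 22746.

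The difference between the constructs was larger at 240 than at 90 min by 2.69 log2 units for AT3G62730 (3.79 against 1.10) and by 0.74 for AT3G62780 (3.75 against 3.01). AT3G62730 was higher at 240 than at 90 min in both wild-type KLU lines and lower in both mutant KLU lines. These values contain the 240 min difference for which the genes were chosen, so they are given without a test.

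Mutant KLU plants had the same vapour for the same times, with a transgene that encodes the mutant protein. The arrays do not measure that protein. At 240 against 90 min the difference was -0.43 for AT3G62730 (95% interval -0.97 to 0.11) and -0.63 for AT3G62780 (-1.66 to 0.40), both at an adjusted p of 1 in limma, where 0% of probe sets passed and 490 had an unadjusted p under 0.05. Both genes were lower at 240 min in both mutant lines, by 0.53 and 0.33 for AT3G62730 and by 0.63 in each line for AT3G62780. The mutant KLU arrays at 240 min entered a comparison that chose the genes, which favours low values on them. Against the uninduced wild-type KLU lines, AT3G62780 was higher with mutant KLU by 1.55 at 90 min (95% interval 0.51 to 2.58, 2.92-fold, adjusted p = 0.472) and AT3G62730 by 0.23 (-0.31 to 0.77, adjusted p = 0.983), where 0.0396% of probe sets passed in limma. At 240 min mutant KLU differed from uninduced plants by 0.92 for AT3G62780 and by -0.20 for AT3G62730, given without a test because both groups entered the comparisons that chose the genes, and 0.154% of probe sets passed. The 2 mutant arrays lay above the uninduced ones at both times for AT3G62780 and overlapped with them for AT3G62730. The uninduced arrays also entered comparisons that chose the genes, which favours low values there and so larger differences from them.

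The lines differed steadily for AT3G62780 and not for AT3G62730. AT3G62780 was higher in line 4-3 than in line 3-1 by 0.61, 0.64 and 0.86 log2 units at 0, 90 and 240 min, and higher in mutant line 3-2 than in line 1-5 by 0.80 at both 90 and 240 min. For AT3G62730 line 4-3 less line 3-1 gave 0.36, -0.56 and 0.16, and line 3-2 less line 1-5 gave 0.18 and 0.38. These are single arrays, so they have no test.

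The 2 genes lie close to each other, with 5 annotated loci between them, of which 4 are protein-coding and 1, ATGSTF13 (a glutathione S-transferase gene of the phi class), was measured under its own name. ATGSTF13 had 3.23 and 3.76 log2 units with wild-type KLU at 240 min, against 3.77 and 3.42 with mutant KLU, with overlapping arrays and a difference of -0.10 in limma's fit (SE 0.210, adjusted p = 0.952). It lay at percentile 11.8 to 23.9 of each of the 10 arrays, below the lower quartile, and at so low a signal the small difference says little about the gene.

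The nearest measured gene before AT3G62730 was AT3G62710, and its arrays were also higher after induction of wild-type KLU. It had 7.90 and 8.08 log2 units at 240 min with wild-type KLU, against 5.89 and 5.45 with mutant KLU, and 5.81 and 4.31 in uninduced plants. At 90 min it had 8.54 in line 3-1 and 6.91 in line 4-3 with wild-type KLU, against 6.19 in line 1-5 and 6.65 in line 3-2 with mutant KLU. Between the constructs at 90 min AT3G62710 differed by 1.305 (adjusted p = 0.925 in limma). It rose by 2.93 with wild-type KLU at 240 min against uninduced plants (SE 0.603, adjusted p = 0.0323 in limma), while the difference from mutant KLU at 240 min, 2.32, had an adjusted p of 0.140. The first call was lost without any 1 array of mutant KLU, of wild-type KLU at 240 min or of uninduced plants (adjusted p of 0.0530 to 0.124) and with the compared groups alone (0.0838). The nearest measured gene after AT3G62780, AT3G62790, had 9.22 and 9.11 with wild-type KLU at 240 min, against 8.82 and 8.60 with mutant KLU and 8.46 and 8.63 in uninduced plants. It rose against uninduced plants by 0.62 (adjusted p = 0.0349 in limma), a call lost without any 1 of the same 8 arrays (0.0504 to 0.184) and with the compared groups alone (0.138), and its difference from mutant KLU was 0.46 (adjusted p = 0.179).

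Over the wider neighbourhood, from AT3G62600 to AT3G62900, 15 of 33 other loci were measured under their own name. Between the constructs at 240 min 0 of the 15 passed in limma, where 1.13% of all probe sets did, and their differences ran from -0.74 (AT3G62650) to 2.32 (AT3G62710) with a median of 0.03, beside 0 over all probe sets. At 90 min the same comparison called 0 of them, where 0.0044% of all probe sets passed, so this count says little about the loci. Their median was -0.05, beside -0.01 over all probe sets. AT3G62820 had 6.06 and 5.96 log2 units with wild-type KLU at 240 min, against 7.71 and 7.34 in uninduced plants. At 240 min with wild-type KLU 2 loci rose against uninduced plants and AT3G62820 fell, by 1.52 log2 units (adjusted p = 0.0107 in limma, up to 0.0750 without 1 array), against 6.82% of all probe sets called in either direction. That count of 3 was 0 without the wild-type KLU array of line 4-3 at 240 min or the uninduced array of line 3-1, and 1 without the wild-type KLU array of line 3-1 at 240 min, the uninduced array of line 4-3 or any 1 mutant KLU array. With only the compared groups in the fit it was 1. At 90 min of wild-type KLU against uninduced plants 0 of the 15 passed, beside 1.62% of all probe sets, and 2 passed with the line as a replicate block, beside 3.42%.

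**Figure D3:**
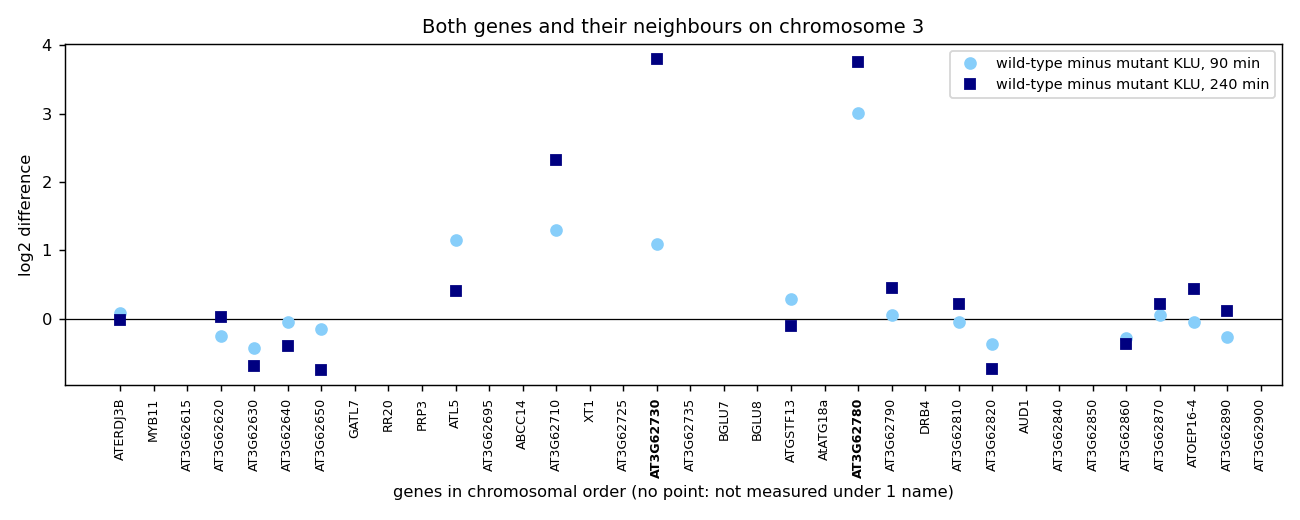
Log2 difference of wild-type from mutant KLU (vertical axis) at 90 min (light circles) and 240 min (dark squares) for the loci from AT3G62600 to AT3G62900 in their order on chromosome 3 (horizontal axis), each point a difference of means of 2 arrays. AT3G62730 with 3.79 and AT3G62780 with 3.75, both chosen for large differences at 240 min, stand above the other measured loci there. AT3G62710 has 2.32 at 240 min, and ATGSTF13, between the pair and below the lower quartile of every array, has -0.10.

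The levels of the 2 genes correlated with each other with Pearson's r of 0.832 and Spearman's rho of 0.851 over the 10 arrays, which share 4 lines and 5 groups. Among 3403 probe sets that name 1 gene and range over at least 1 log2 unit, AT3G62780 came at place 226 of those most like AT3G62730, and AT3G62730 at place 246 of those most like AT3G62780. Over the 6 wild-type KLU arrays alone r was 0.778 and the places were 589 and 420. Many genes thus followed either of them more closely than they followed each other.

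The 5 genes most like AT3G62730 by Pearson's r over the 10 arrays were AT5G62330 (0.985), AT5G43770 (0.982), AT3G14510 (0.973), NRT2.5 (0.970), which encodes a high-affinity nitrate transporter, and AT3G48080 (0.967). AT5G62330 had 6.56 and 7.31 log2 units on the 240 min arrays of wild-type KLU, 5.48 and 5.25 on its 90 min arrays, 4.23 and 4.59 in uninduced plants, and 4.27 to 4.48 on the mutant KLU arrays. NRT2.5 had 5.19 and 5.47, 4.12 and 4.38, 3.35 and 3.77, and 3.23 to 3.70 in the same order. All 5 were higher at 240 than at 90 min with wild-type KLU, by 0.64 (AT3G48080) to 1.57 (AT5G62330), less than the 2.26 of AT3G62730. The genes were chosen for this likeness, so it has no test.

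The 5 genes most like AT3G62780 were AT4G01870 (r = 0.986), AT1G10580 (0.985), AT1G29180 (0.985), AT1G31335 (0.984) and AT5G61560 (0.982). They had made their step by 90 min, with differences from 0 to 90 min of 1.58 (AT1G10580) to 4.66 (AT1G29180) and from 90 to 240 min of -0.36 (AT1G31335) to 0.22 (AT1G10580). AT4G01870 had 9.46 and 9.78 on the 240 min arrays of wild-type KLU, 9.72 and 10.1 on its 90 min arrays, 5.66 and 6.17 in uninduced plants, and 6.31 to 7.93 on the mutant KLU arrays. Its mutant KLU arrays lay above the uninduced ones, as for AT3G62780. The ranking depended on the arrays used. Over the 6 wild-type KLU arrays 1 of the 5 stayed among the 5 most like AT3G62730 and 2 of the 5 for AT3G62780, and with Spearman's rho 1 of 5 stayed for each.

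**Figure D4:**
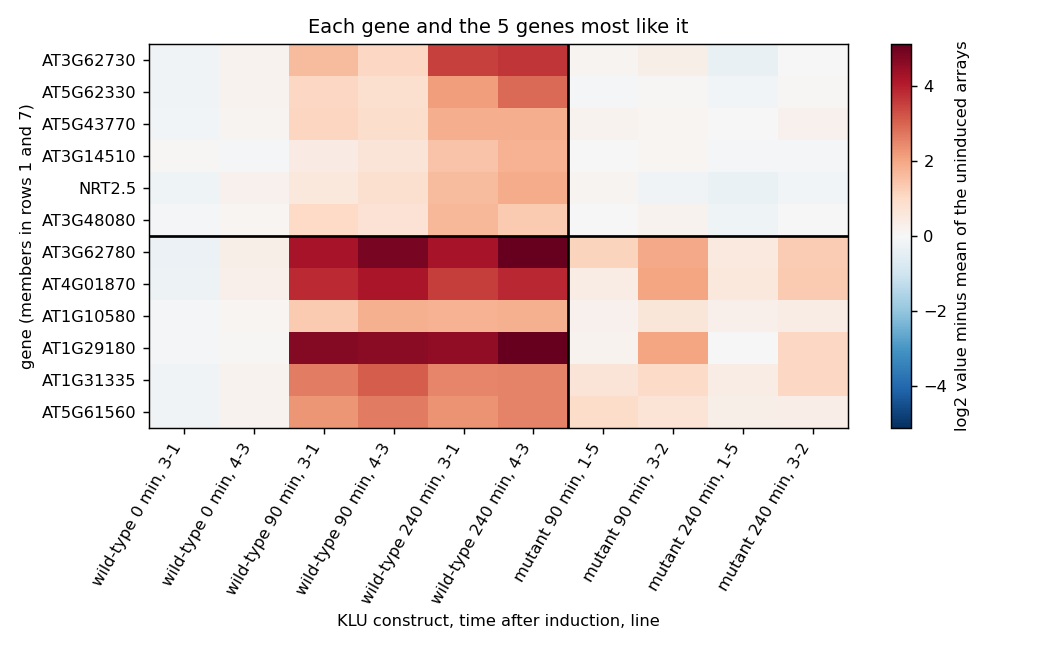
Log2 value less the mean of the uninduced arrays (colour scale) for AT3G62730 and the 5 genes most like it (upper block) and AT3G62780 and the 5 most like it (lower block), on the 10 arrays (columns, wild-type KLU left of the bar and mutant KLU right of it). The upper block is deepest at 240 min with wild-type KLU, where AT3G62730 differs by 3.59 from uninduced plants, and the lower block is as deep at 90 as at 240 min, with 4.56 and 4.67 for AT3G62780.

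Single markers of other cell types in the pooled tissue were higher with wild-type KLU, and they made up most of the summed signal of their lists on those arrays. Of 21 pollen markers 10 were measured, and their summed linear intensity was 1959 and 1607 at 90 min and 1468 and 1402 at 240 min under wild-type KLU, against 676 and 949 at 90 min and 562 and 630 at 240 min under mutant KLU, and 578 and 438 in uninduced plants. TUA1 alone gave 73.4% to 85.3% of the sum on the 4 induced wild-type KLU arrays, 62.2% to 70.2% on the mutant KLU arrays, and 52.3% and 62.2% on the uninduced ones. The other 9 summed to 521 and 237 at 90 min and 363 and 234 at 240 min under wild-type KLU. Under mutant KLU they summed to 202 and 296 at 90 min and 212 and 231 at 240 min. In uninduced plants the sums were 276 and 166. Without TUA1 the constructs thus overlapped at 90 min, and wild-type KLU overlapped with uninduced plants at both times. At 240 min both wild-type KLU sums lay above both mutant ones, at the closest with 234 against 231. Of these 10, TUA1, which encodes an alpha-tubulin of pollen, rose against mutant KLU at 240 min by 1.61 (adjusted p = 0.0140 in limma), while the median difference of the 10 was -0.07. This call was lost without any 1 of the 4 arrays of the comparison, and 1.13% of all probe sets passed there in the full fit. TUA1 and AGL30 both passed against uninduced plants at 90 and 240 min, where 1.62% and 6.82% of all probe sets did. The rise of TUA1 at 240 min against uninduced plants was 1.91 to 2.06 with each array left out. AGL30, a MADS box gene, rose against uninduced plants at 240 min by 1.73 (adjusted p = 0.0125 in limma), a call lost without either 240 min array of wild-type KLU (0.0675 and 0.0532) and with the compared groups alone (0.0562). Its difference from mutant KLU, 1.34, had an adjusted p of 0.0632, of 0.0454 with the line as a replicate block, of 0.0415 with median centring and of 0.0614 to 0.389 with 1 array left out. Of 14 endosperm and seed markers 4 were measured, summing to 571 and 396 at 90 min and 829 and 650 at 240 min under wild-type KLU, against 87.0 and 228 at 90 min and 98.1 and 260 at 240 min under mutant KLU, and 83.7 and 91.4 in uninduced plants. AGL86 alone gave 77.9% to 91.0% of the sum on the 4 induced wild-type KLU arrays, with 8.27 to 9.56 log2 units. The mutant KLU lines differed in AGL86. At 90 and 240 min it had 7.4 and 7.57 log2 units in line 3-2 (74% and 73.2% of the sum). In line 1-5 it had 2.95 and 4.33 (8.88% and 20.5%), against 3.18 and 3.33 in uninduced plants. High AGL86 was thus not limited to wild-type KLU. The other 3 summed to 59.2 to 87.5 over the 10 arrays. Of these, AGL86, another MADS box gene, rose against uninduced plants at 240 min, by 6.10 (adjusted p = 0.0480 in limma), a call lost without any 1 array of wild-type KLU, uninduced or induced, or of mutant KLU at 240 min, with an adjusted p of up to 0.200. The other 3, AGL61, AGL62 and AGL80, differed by at most 0.15 between the constructs at 240 min. The values of pooled tissue cannot tell more transcript per cell from more cells of a type, and the part of these markers in the result was not tested.

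Further gene lists were set beside the pair. Of 20 genes of desiccation tolerance and late embryogenesis 8 were measured, and 0 passed in any comparison, where 0% to 6.82% of all probe sets did, so the count does not set the list apart from other probe sets. At 240 min their differences of wild-type from mutant KLU ran from -0.32 (AT1G47980) to 0.35 (LTI30, a dehydrin gene), with a median of -0.02. Of 10 genes of C2 domain proteins, which bind membrane lipids, 2 were measured, AT5G37740 with -1.36 (adjusted p = 0.100) and SRC2 with -0.06 (adjusted p = 0.992) in the same comparison, and neither passed in any comparison. With the line as a replicate block AT5G37740 was lower at 240 min of wild-type KLU than in uninduced plants, with a difference of -1.03 (adjusted p = 0.0222 in limma), where 11.8% of all probe sets passed under that block. AT3G62730 with 3.79 and AT3G62780 with 3.75 lay outside the range of both lists. They were chosen for large differences in this comparison, so this does not set them apart from the lists.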

How the data were processed

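Total RNA of pooled inflorescences was labelled with biotin and hybridised to Affymetrix arrays, 1 per line and time, per the labels' protocols. The values deposited by the authors are on a log2 scale and came from RMA (version not stated), per the submitters' processing notes. They were used unchanged. RMA subtracts background, gives the arrays one distribution and pulls low signals together, so folds of low genes can be understated. No label gives a batch or scan date.

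After setting aside the 64 control probe sets of 22810, 22746 were tested. A platform table names 1 gene for 13513, several for 503 and none for 8730, and 13436 matched a RefSeq locus (assembly TAIR10.1), from which gene names and their order were taken. Groups came from the sample titles. Tests were made with limma 3.58.1 (R 4.3.3) on all 10 arrays together, fitting the 5 group means, two-sided, with Benjamini-Hochberg adjustment over all probe sets and a threshold of 0.05. The fit was tried on simulated arrays with independent values and no line effect, so that trial does not cover the pairing by line. The members, lists and comparisons were chosen with earlier results of these data known. Differences of the members that are made up of those that chose them are given without p-values, also where a test had been planned. Beside both members, the named genes are the 5 most like each, the nearest measured neighbours, and of each list those past the threshold (up to 4) and the 2 with the largest difference of the constructs at 240 min. Cell type markers that passed at 240 min are named, and CLV3, AGL61, AGL62 and AGL80 were named after their values were seen. The gene tables used here hold no descriptions, so no list was extended by them. Sequences were not used here.

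The transformed line recurs at each time of its construct, which pairs the arrays. Over all probe sets, line differences at 2 times correlated with 0.475 to 0.633 in wild-type KLU and 0.348 in mutant KLU. Alternatives were the line as a replicate block (random between constructs), only the compared groups in the fit, a trended and robust variance prior, a filter at the median level, quantile normalization or median centring of the arrays, and omission of each array in turn. matplotlib 3.10.9 drew the figures.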

Additional observations from a re-analysis of the deposited data

Results flagged for a closer look

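The change of AT3G62730 from 90 to 240 min went in opposite directions in the constructs. It was 1.90 and 2.62 log2 units in the wild-type KLU lines 3-1 and 4-3, and -0.53 and -0.33 in the mutant KLU lines 1-5 and 3-2, and the changes differed by 2.69. This value contains the difference of the constructs at 240 min for which the gene was chosen, and the difference between the constructs was not tested.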

How the results depend on the processing

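With 2 arrays per group, no alternative changed the side of the threshold for either gene in a comparison that was tested. With the line as a replicate block the adjusted p was 0.0554 for AT3G62780 between the constructs at 90 min, and it ranged over all alternatives from 0.0554 to 0.593. That of AT3G62730 ranged from 0.116 to 0.908. AT3G62730 lies below the median level and has no value among probe sets above it. AT3G62780 between 90 and 240 min with wild-type KLU, 0.11 as reported, ranged from -0.32 to 0.54 when each array was left out. The difference in timing of the 2 genes ranged from 1.55 to 2.75 without 1 of the 4 wild-type KLU arrays at 90 or 240 min. Of the differences that chose the genes, leaving out each array gave 3.60 to 3.98 for AT3G62730 and 3.32 to 4.18 for AT3G62780 between the constructs at 240 min.

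Several small differences of other named genes changed sign when an array was left out; the cause was not tested. Between 90 and 240 min with wild-type KLU the ranges were -0.005 to 0.45 for AT1G10580, -0.13 to 0.47 for AT1G29180, -0.22 to 0.16 for AT5G61560, -0.55 to 1.08 for AT3G62710 and -1.01 to 0.05 for AT3G62650. Between the constructs at 240 min they were -0.37 to 0.17 for ATGSTF13, -1.235 to 1.94 for LTI30, -0.95 to 0.31 for AT1G47980 and -0.61 to 0.50 for SRC2. With the line as a replicate block, 2 chromosome 3 neighbours passed in the comparison of 90 min of wild-type KLU with uninduced plants, where 3.42% of all probe sets passed under the block. These were AT3G62820, with -1.09, and AT3G62710, with 2.67, and without the block 0 passed, beside 1.62% of all probe sets. With dim probe sets removed 1 neighbour passed (2.91% of all), and 1 without the array of line 3-1 at 90 min (0.251%). AGL86 at 240 min of wild-type KLU against uninduced plants had an adjusted p of 0.0709 with trended and robust variances. The signal of AT3G62730 near or below the lower quartile on 6 arrays limits what its folds there can show.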

Other observations

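The 14 probe sets that had reached a smaller share of their log2 change by 90 min than AT3G62730 were looked at after their values were seen. The gene table names 4 of them, AT5G39670, AT5G52760, AT5G52750 and AT3G60420, and 10 are not listed in it. AT5G39670 was higher by 0.27 log2 units at 90 than at 0 min and by 3.18 at 240 than at 0 min with wild-type KLU, AT5G52760 by 0.80 and 4.53, AT5G52750 by 0.66 and 3.65, and AT3G60420 by 0.88 and 3.70. In the 14 probe sets, mutant KLU at 240 min differed from uninduced plants by 0.19 to 2.78, and among the 4 named genes by 1.27 to 2.27, where AT3G62730 differed by -0.20. These differences are given without a test.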
